A study of Mus musculus with 3 samples.

Results

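Interferon-stimulated genes were followed in nasal mucosa of C57BL/6 mice given papain in the nose, with or without lonidamine by mouth. All 44 genes of the set were found by symbol among the 55357 genes of the count matrices. They were read in 3 groups: 31 genes of the Ifit/Oas/Mx type, 12 of the Gbp/Irf1/Cxcl9 type, and Ifi202b of the p200 family. Single-cell 3′ RNA libraries had been made from 3 groups of mice, labelled C57BL/6J: PBS in the nose (the control), 20 µg of papain in the nose with PBS by gavage (the model of eosinophilic sinusitis), and the same papain with lonidamine at 10 mg/kg by gavage. Papain is a plant cysteine protease that provokes allergic airway inflammation, and lonidamine blocks glycolysis at hexokinase and the export of lactate. By the design text each group held males and females in equal numbers, and all its mice were pooled into 1 library, so each group has 1 value, no spread between mice can be given, and no test between groups was made. How many mice were used, their age and the days of dosing are not stated in the labels. The papain library also bears the library name Fibroblast in its labels; all 11 cell types compared below had at least 100 cells in it, and it was used under its treatment label. It is the reference of the lonidamine comparison and the treated library of the papain comparison, so the 2 comparisons are not independent.

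Interferons are secreted proteins that alert cells to infection. Type I and type III interferons act through JAK1 and TYK2 and assemble the complex ISGF3, which holds IRF9 and binds the interferon-stimulated response element and drives genes such as the Ifit, Oas and Mx families. Interferon gamma acts through JAK1 and JAK2 and, by way of gamma-activated sites, raises the transcription factor IRF1 and drives guanylate-binding proteins (Gbp), immunity-related GTPases (Iigp1, Igtp, Irgm1) and the T cell chemokines Cxcl9 and Cxcl10. The division is one of degree, since many genes answer to both, and Irf1 and Cxcl10 are also induced by NF-kB.

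Promoters were searched because the groups are drawn from these pathways and their binding sites. RefSeq windows of the older build GRCm38.p6, from 250 bases before to 50 after the start of transcription, were at hand for 34 of the 44 members, and were searched on both strands for the core of the response element (GAAA, 2 bases of any kind, GAAA) and for TTCNNNGAA, the gamma-activated site. The core was found in 13 of 25 windows of the Ifit/Oas/Mx type (52.0%) and 6 of 13 of the Gbp/Irf1/Cxcl9 type (46.2%), and in 3.44% of all 32851 windows. TTCNNNGAA was found in 5 of 25 (20.0%) and 4 of 13 (30.8%), and in 8.30% of all windows. The pair of motifs overlapped in 24 windows in all, among them those of Bst2 and Ifitm3. The windows of Psmb9 and Tap1 lie on opposite strands of the same stretch of chromosome 17 and are not independent. The windows of 5 genes on which the results below turn are printed 5′ to 3′ on the strand of the gene, with matches in capitals: Isg15 (chr4:156200769-156201068, minus strand, 3 overlapping core matches starting at -78, -72 and -66 from the transcription start), Ifit1 (chr19:34640639-34640938, plus strand, 2 matches on the other strand), Cxcl10 (chr5:92348840-92349139, minus strand, 1 match), Gbp2 (chr3:142620413-142620712, plus strand, 1 match on the other strand) and the first of 2 Irf1 windows (chr11:53769764-53770063, plus strand, no core and 1 TTCNNNGAA).
Isg15: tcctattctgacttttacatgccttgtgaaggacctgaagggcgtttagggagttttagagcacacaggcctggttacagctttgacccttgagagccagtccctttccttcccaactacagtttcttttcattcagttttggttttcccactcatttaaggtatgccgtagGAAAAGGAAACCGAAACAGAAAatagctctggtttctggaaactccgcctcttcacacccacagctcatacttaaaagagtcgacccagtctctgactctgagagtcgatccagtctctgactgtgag
Ifit1: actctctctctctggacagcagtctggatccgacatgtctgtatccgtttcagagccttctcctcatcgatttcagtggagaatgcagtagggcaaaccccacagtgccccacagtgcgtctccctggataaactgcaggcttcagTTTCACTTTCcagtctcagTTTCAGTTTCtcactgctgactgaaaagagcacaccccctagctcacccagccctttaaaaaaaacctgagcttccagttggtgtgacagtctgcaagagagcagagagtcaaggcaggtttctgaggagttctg
Cxcl10: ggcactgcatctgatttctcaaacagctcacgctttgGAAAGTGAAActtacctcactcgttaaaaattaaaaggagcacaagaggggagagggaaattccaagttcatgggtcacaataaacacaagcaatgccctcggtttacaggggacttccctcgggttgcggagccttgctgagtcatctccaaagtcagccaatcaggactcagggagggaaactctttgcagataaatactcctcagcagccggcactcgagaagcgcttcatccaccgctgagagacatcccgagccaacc
Gbp2: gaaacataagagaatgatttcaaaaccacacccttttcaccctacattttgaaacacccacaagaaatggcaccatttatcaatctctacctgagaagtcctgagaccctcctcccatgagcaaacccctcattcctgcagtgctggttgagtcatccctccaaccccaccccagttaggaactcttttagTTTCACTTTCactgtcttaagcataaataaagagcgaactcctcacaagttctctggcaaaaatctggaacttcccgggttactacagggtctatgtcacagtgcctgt
Irf1: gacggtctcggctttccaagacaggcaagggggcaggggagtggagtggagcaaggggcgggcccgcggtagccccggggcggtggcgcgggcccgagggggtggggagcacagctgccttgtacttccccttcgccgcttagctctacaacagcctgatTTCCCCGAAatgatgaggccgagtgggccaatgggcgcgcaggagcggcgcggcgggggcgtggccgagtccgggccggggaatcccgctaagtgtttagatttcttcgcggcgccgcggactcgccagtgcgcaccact
Windows were at hand for 22 of the 31 Ifit/Oas/Mx-type genes and 11 of the 12 Gbp/Irf1/Cxcl9-type genes. Among these windows both groups carried the core in about the same share. Whether genes without a window, such as Mx1, Mx2 and Oas2, would change this could not be seen.

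After filtering, 9378 cells of the PBS library, 10524 of the papain library and 11887 of the lonidamine library carried 79971740, 82918339 and 84998730 unique molecular identifiers (UMIs, one per captured RNA molecule). A gate on marker genes assigned 77.6%, 70.9% and 68.2% of these cells to a type, and 11 types had at least 100 cells in every library. The median number of detected markers was 6 of 7 in endothelial cells and 7 of 7 in mature olfactory neurons. Females made up 56.8%, 73.2% and 83.1% of the cells whose sex could be read, in the order PBS, papain, lonidamine, so sex moved with treatment and values within each sex are given where they change a result. Libraries shared between 22 and 35 cell barcodes per pair. Levels are in CPM, the UMIs of a gene per 1000000 UMIs of the summed cells. Ratios are log2 with 0.5 UMIs added to each sum, so 1 is a doubling, and brackets hold the 95% interval, which accounts for counting error alone. A gene counted as measured with at least 30 UMIs over the 2 libraries compared, and as higher or lower at 2-fold or more. In a library, fewer cells of a type and less RNA per cell cannot be told apart when all cells are summed.

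Over all cells, papain went with higher Gbp/Irf1/Cxcl9-type genes and left most Ifit/Oas/Mx-type genes near their PBS level. Of the 12 genes of the first group, 9 were at least 2-fold higher and none lower, with a median log2 ratio of 1.34. Of the 31 of the second group, 2 were higher and 1 lower, with a median of 0.15. With Ifi202b that made 12 of 44 members higher, while 9.73% of all 21674 genes measured were higher, 5.39% were lower, and their median was -0.02.

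The chemokines led. Cxcl9, which draws CXCR3-bearing T cells, had 63 UMIs in the PBS library, 666 in the papain library and 554 in the lonidamine library, or 0.788, 8.03 and 6.52 CPM, a papain to PBS ratio of 3.34 [2.98, 3.75]. Cxcl10, which acts on the same receptor, had 2873, 11208 and 9333 UMIs (35.9, 135 and 110 CPM), a ratio of 1.91 [1.85, 1.97]. For both chemokines the summed level with lonidamine was nearer to papain than to PBS, but in male cells alone Cxcl10 was at 31.5, 154 and 67.6 CPM, nearer to PBS. Among the GTPases, which attack the vacuoles of intracellular microbes, Iigp1 was raised most, from 1399 UMIs to 9728 and 9426 (17.5, 117 and 111 CPM, ratio 2.75 [2.66, 2.83]). Gbp2 went from 787 UMIs to 2541 and 1705 (1.64), Gbp3 from 407 to 1267 and 740 (1.58), and Gbp5 from 455 to 1279 and 1056 (1.44). Irgm1 (1276, 2991 and 2410 UMIs, 1.18) and Igtp (562, 1278 and 994, 1.13) passed 2-fold more narrowly. In male cells alone Gbp3 (0.80) and Igtp (0.61) were under 2-fold. The transcription factor gene Irf1 had 9809, 23965 and 27002 UMIs (123, 289 and 318 CPM), a ratio of 1.24 [1.20, 1.27], and it was the sole gene of this group that was no lower with lonidamine. The antigen-processing members stood apart: the transporter subunit Tap1 had a ratio of 0.83, and the immunoproteasome subunits Psmb9 and Psmb8 had 0.37 and -0.42.

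In the Ifit/Oas/Mx group, Ifi44 (341, 869 and 641 UMIs, ratio 1.30 [1.12, 1.48]) and the antiviral GTPase Mx2 (223, 550 and 506 UMIs, 1.25 [1.02, 1.48]) were higher with papain. Oas3, a sensor of double-stranded RNA that makes 2-5A, was lower, with 224, 103 and 152 UMIs (-1.17 [-1.52, -0.83]). Its loss was smaller, at -0.50, when each library was given the PBS shares of cell types, and at -0.66 when each cell had the same weight. The members with most UMIs, the membrane protein gene Ifitm3 (60770, 53124 and 37615 UMIs) and Ifi27l2a (14636, 14273 and 14230 UMIs), had ratios of -0.25 and -0.09. Of the other 26 genes of this group, the extremes were 0.85 for the RNA sensor Ifih1 and -0.52 for Rsad2 (viperin). The plot of levels in all cells shows the same split gene by gene. When each library was given the PBS shares of cell types, 8 in place of 12 members were higher, against 7.61% of all genes with that weighting, and the Gbp/Irf1/Cxcl9-type median was 0.87.

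**Figure D1:**
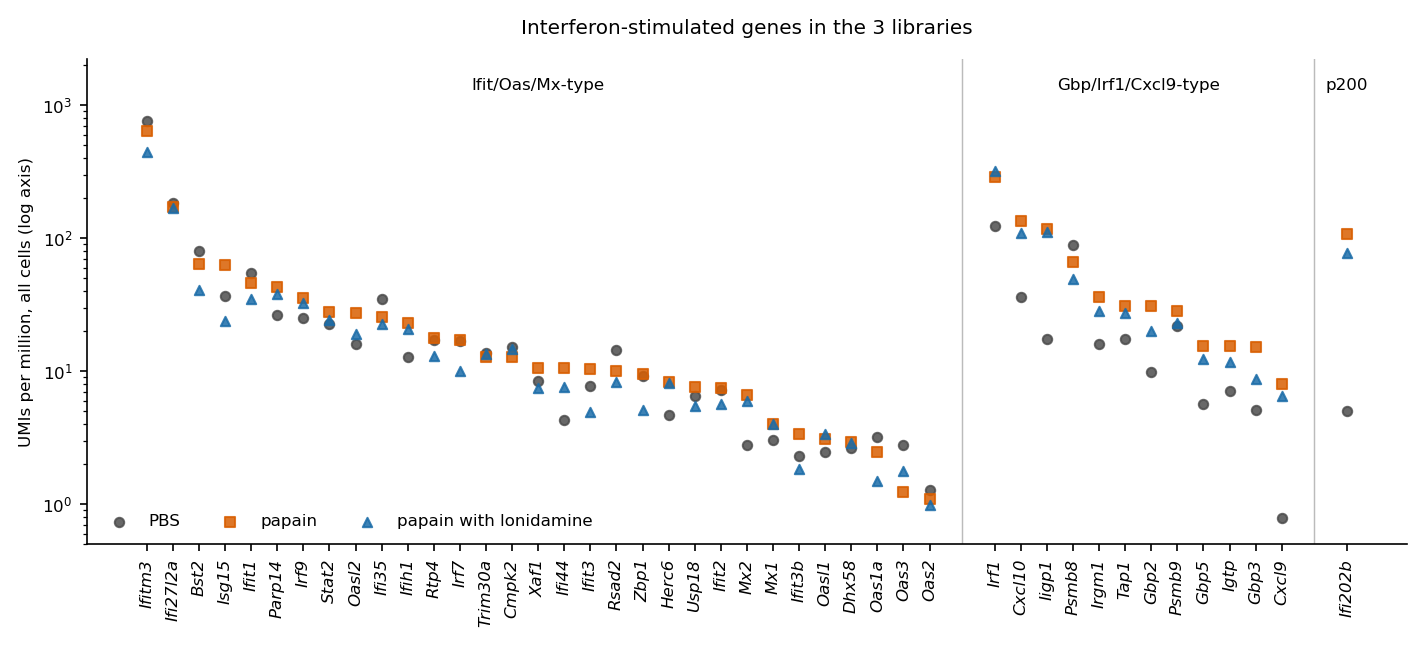
Level of each of the 44 genes summed over all cells, in CPM on a log axis, with 1 point for each library (no error bars, 1 library per group). Cxcl9 rose from 0.788 to 8.03 and Iigp1 from 17.5 to 117 with papain, while in the Ifit/Oas/Mx-type panel the points of most genes lie close together and Isg15 is lowest with lonidamine.

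Papain with lonidamine against papain alone showed a shallow and broad shift to lower values. No member was at least 2-fold higher and 2 were lower, against 2.56% and 1.71% of the 21737 genes measured. Yet 39 of the 44 ratios were below 0, and the medians were -0.29 for the Ifit/Oas/Mx type and -0.31 for the Gbp/Irf1/Cxcl9 type. The median of all genes measured was 0.03, and their share below 0 was not counted. The medians of both groups over all cells were thus alike in this comparison. Within types they differed in either direction. In the same order of groups they were -0.45 and -0.95 in neutrophils, and -0.73 and -0.32 in mature olfactory neurons. Isg15, a ubiquitin-like protein that is attached to other proteins and also secreted, had 2941, 5159 and 2008 UMIs (36.8, 62.2 and 23.6 CPM), so that the lonidamine library lay below both others (-1.40 [-1.47, -1.32] against papain). Ifit3 had 616, 859 and 422 UMIs (-1.06 [-1.23, -0.89]), and was short of 2-fold in female cells alone, at -0.77. The next lowest were Ifit3b (-0.89), the nucleic acid sensor Zbp1 (-0.89), Gbp3 (-0.81), the master regulator Irf7 (-0.75) and Oas1a (-0.72). The 5 ratios above 0 were those of Oas3 (0.52), the nucleotide kinase Cmpk2 (0.21), Irf1 (0.14), Oasl1 (0.11) and Trim30a (0.07). These genes were chosen here for their sign. In female and then male cells alone, Oas3 had 0.74 and -0.25, Oasl1 0.22 and -0.47, and Cmpk2 -0.03 and 0.82. Irf1 and Trim30a were above 0 in either sex.

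The sexes differed in this comparison. In male cells 14 of 43 measured members were at least 2-fold lower with lonidamine, where 2.97% of all genes were, among them Cxcl10 (-1.19), Ifitm3 (-1.03), Bst2 (-1.22) and Ifi202b (-1.85). In female cells 1 of 44 was, where 2.34% of all genes were. The male sums rest on 2109 cells with papain and 1580 with lonidamine, the female sums on 5746 and 7760. That gene in female cells was Isg15, at 57.2 CPM with papain and 22.6 with lonidamine (-1.34) and at 66.5 and 25.9 in male cells (-1.36). Values of each sex here are sums over all its cells, and the part of the mix of cell types was not tested. Cxcl10 could be measured in 3 types of male cells, and was at least 2-fold lower in 1 and 2-fold higher in 1. The Ifit/Oas/Mx-type median was -0.13 in female and -0.64 in male cells. Summed over all cells, Isg15 was therefore about as much lower in either sex, and the wider set was not; whether the difference between the sexes exceeds the spread between mice cannot be tested with these pools.

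Within cell types, the Gbp/Irf1/Cxcl9-type median with papain was above the median of all genes in 11 of 11 types, from 0.05 in basal epithelial cells to 1.90 in endothelial cells. The Ifit/Oas/Mx-type median was above it in 10 of 11, from -0.13 in sustentacular cells, where it was below, to 0.96 in pericytes or smooth muscle. With lonidamine against papain, both medians were below the median of all genes in 11 of 11 types, between -0.73 and -0.12 for the Ifit/Oas/Mx type and between -0.95 and -0.01 for the Gbp/Irf1/Cxcl9 type. The types come from the same 3 libraries and are not replicates. Ribosomal protein genes, as a set with no known tie to interferon, had medians between -0.51 and -0.07 over these types with papain and between -0.27 and -0.01 with lonidamine. The median with lonidamine was below that of the ribosomal protein genes in 11 of 11 types for the Ifit/Oas/Mx type and in 10 of 11 for the Gbp/Irf1/Cxcl9 type. The part of this general shift in the result was not tested.

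**Figure D2:**
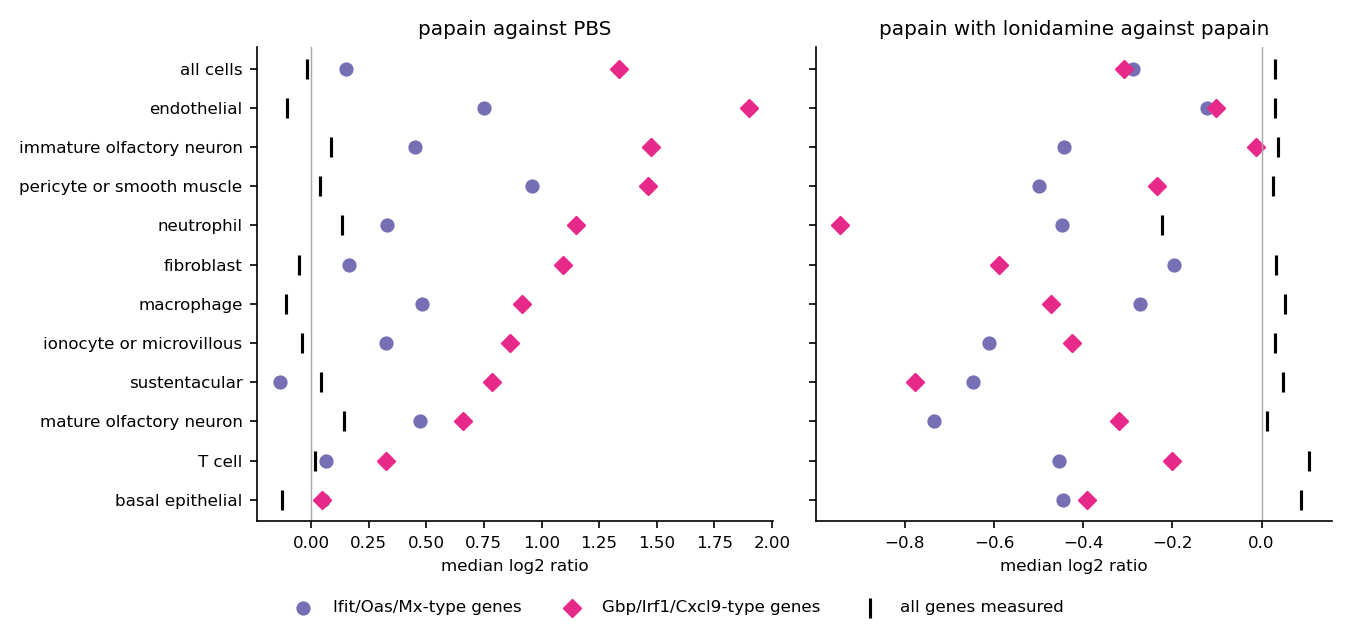
Median log2 ratio (x axis) of the measured Ifit/Oas/Mx-type genes (circles), Gbp/Irf1/Cxcl9-type genes (diamonds) and all genes measured (black ticks) in all cells and in each of 11 gated cell types (y axis), 1 library per group. In the left panel the diamonds reach 1.90 in endothelial cells, and in the right panel both symbols lie left of the tick in every type.

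Some members moved the same way in nearly every type with papain. Gbp3 was at least 2-fold higher in 9 of the 10 types where it was measured, with basal epithelial cells the exception (0.68). In female cells it was so in 7 of 7 types and over all cells at 2.22, but in male cells in 1 of 4 and over all cells at 0.80. Cxcl9 was higher in 4 of 4 and Iigp1 in 7 of 9. Cxcl10 was less uniform, higher in 6 of 11, below 0 in 2 and at least 2-fold lower in T cells (-1.85). Between 5.08% (immature olfactory neurons) and 11.2% (neutrophils) of all genes were at least 2-fold higher in a type. Parp14, a mono-ADP-ribosyltransferase, was above 0 in 11 of 11 types and Tap1 in 10 of 10, each with a smaller ratio (0.22 to 1.93 and 0.40 to 1.95). In the opposite sense Ifi35 was below 0 in 10 of 11 types, with neutrophils the exception (0.51). Irf7 and Irf9 were above 0 in 9 of 11 each, but the interval lay above 0 in 4 types for Irf7 and in 6 for Irf9. Irf7 was lowest in T cells (-0.81). Over all cells the ratios were 0.02 for Irf7 and 0.51 for Irf9. These 2 genes encode the factor that amplifies type I interferon production and the DNA-binding subunit of ISGF3.

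**Figure D3:**
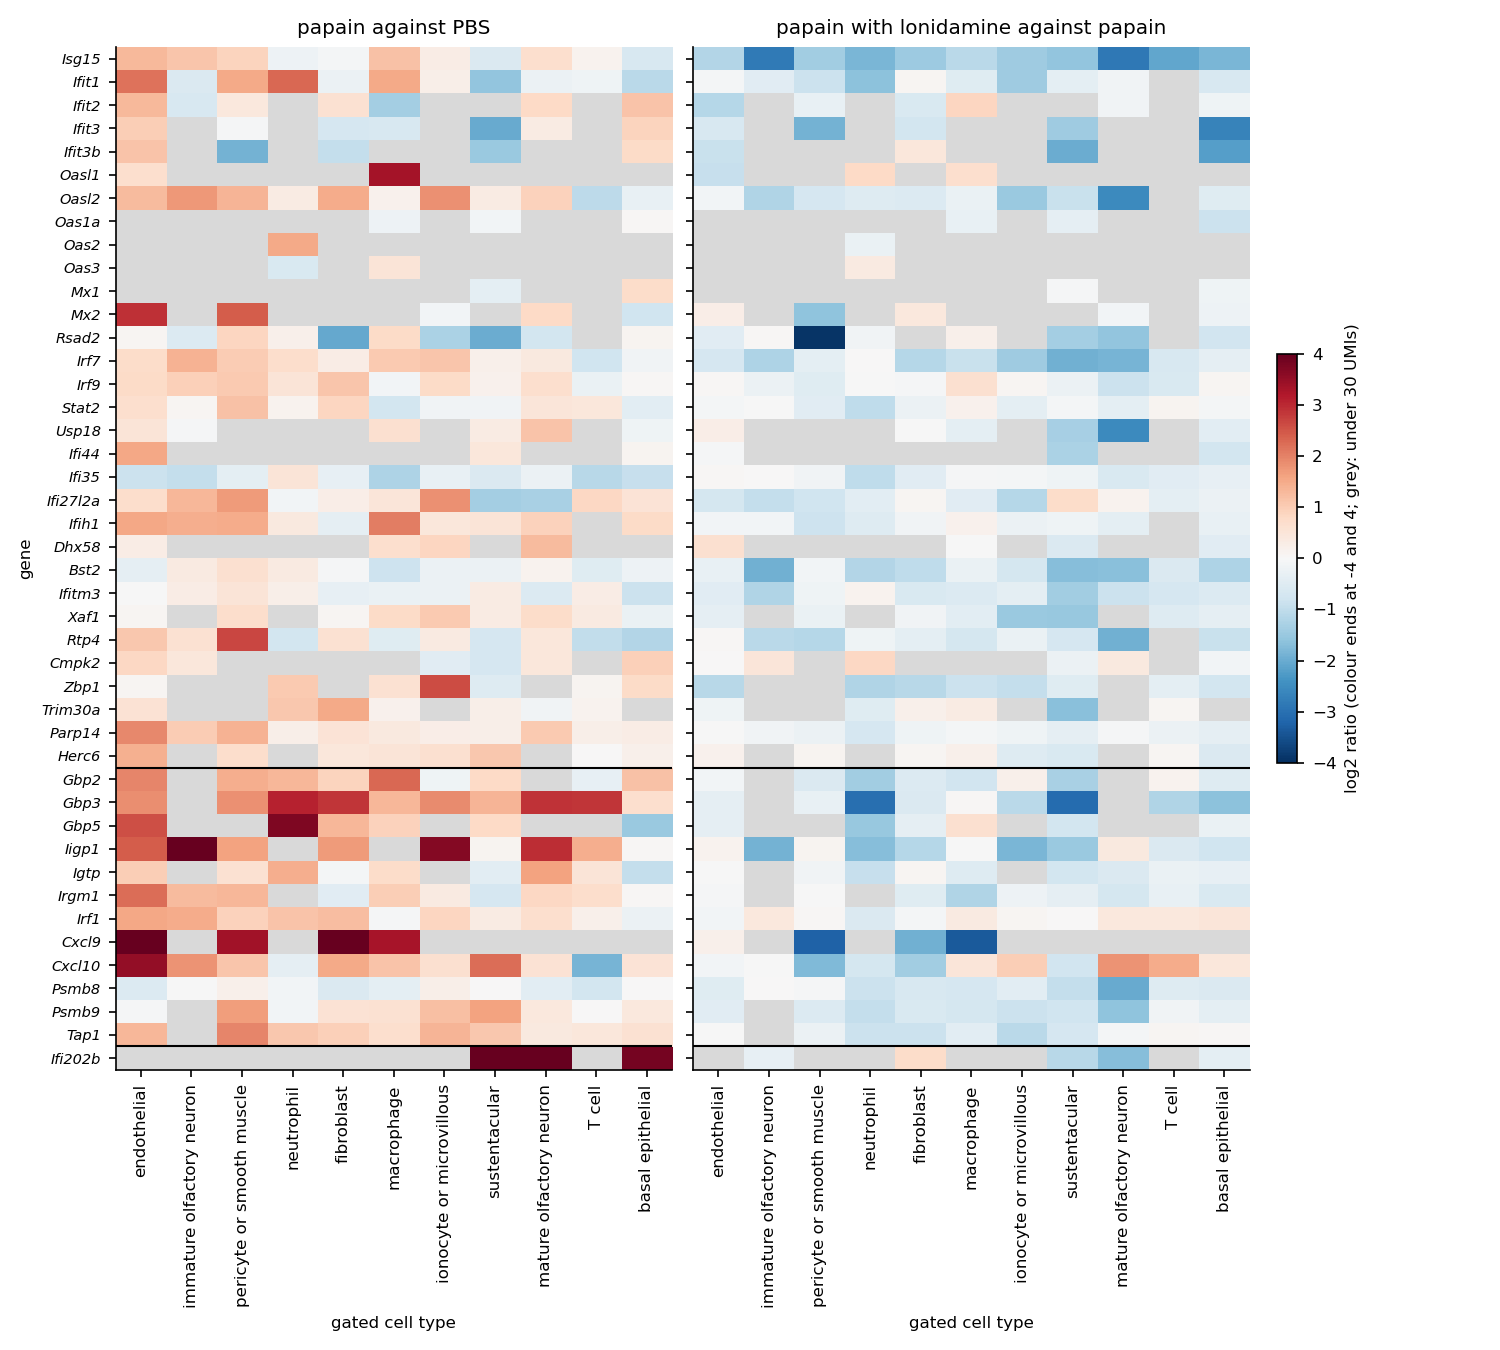
Log2 ratio of each gene (rows, with lines between the 3 groups of genes) in each of 11 gated cell types (columns) for papain against PBS and for papain with lonidamine against papain; colour runs from -4 to 4 and grey marks genes under 30 UMIs. Cxcl9 in fibroblasts and Ifi202b in sustentacular cells had 0 UMIs in the PBS library, so their colours depend on the 0.5 UMIs added; the row of Isg15 is blue in all 11 columns of the right panel.

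Endothelial cells (197, 338 and 425 cells in the order PBS, papain, lonidamine) had the highest Gbp/Irf1/Cxcl9-type median of the 11 types (1.90) and, after pericytes or smooth muscle, the next highest Ifit/Oas/Mx-type median (0.75). There 9 of 12 Gbp/Irf1/Cxcl9-type genes and 11 of 27 measured Ifit/Oas/Mx-type genes were at least 2-fold higher with papain and none was lower, against 5.74% and 6.03% of all genes. Cxcl10 had 241, 3993 and 3761 UMIs in these cells (121, 1379 and 1279 CPM; ratio 3.51 [3.32, 3.70]) and Cxcl9 had 12, 306 and 358 (4.07 [3.31, 5.10]). Both were high in the 2 papain-treated libraries alike. Iigp1 had 713, 5535 and 6255 UMIs (2.41), so that endothelial cells gave 51.0%, 56.9% and 66.4% of all Iigp1 UMIs of a library while making up 2.1%, 3.21% and 3.58% of its cells. Gbp5 followed with 69, 606 and 481 UMIs (2.58), and Irgm1 with 120, 833 and 822 (2.25). Irf1 rose from 582 to 1720 CPM and stood at 1593 CPM with lonidamine. In the Ifit/Oas/Mx group, Mx2 had 20, 226 and 277 UMIs (2.92 [2.30, 3.70]), Ifit1 138, 911 and 879 (2.18) and Parp14 157, 872 and 879 (1.93). Isg15 differed between the papain-treated libraries, with 418, 1482 and 669 UMIs or 210, 512 and 228 CPM. Ifi35 (-0.86) and Psmb8 (-0.55) were lowest with papain. Apart from Isg15 (-1.17), Ifit2 (158 and 73 UMIs, -1.13) and Zbp1 (22 and 10 UMIs, -1.12), no endothelial member was 2-fold lower with lonidamine, where 1.23% of all genes were; of the Ifit2 UMIs in the papain library 35 came from 1 cell, and without the highest cell of each library the ratio was -0.87.

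The endothelial rise was spread over cells. With each cell thinned to 1000 UMIs, the share of endothelial cells with a Cxcl10 UMI was 5.13% [2.49, 9.23], 35.7% [30.6, 41.1] and 39.0% [34.3, 43.8], and with an Iigp1 UMI 26.7%, 64.0% and 67.0%. Before thinning the shares were 12.7%, 50% and 51.3% for Cxcl10. In mature olfactory neurons, which served as the background for free RNA, thinned shares were 0.150%, 0.423% and 0.530% for Cxcl10 and 0%, 0.339% and 0.151% for Iigp1, where 0 of 2674 cells allows up to 0.112%; the median cell there had 7457, 6908 and 6557 UMIs, against 5960, 5861 and 5201 in endothelial cells. The share of thinned endothelial cells with at least 3 Gbp/Irf1/Cxcl9-type genes went from 14.4% [9.76, 20.1] to 55.0% [49.4, 60.4] and 52.7% [47.8, 57.6]. For the Ifit/Oas/Mx type the shares were 37.4%, 52.0% and 45.8%. Markers of other cells are kept low in the endothelial gate by its rule, a lead of endothelial markers over those of any other type. Their levels there therefore cannot test for RNA of other cells. The summed level of 7 macrophage markers was 29.7, 30.4 and 41.5 CPM, of 7 T cell markers 17.1, 18.6 and 2.38 CPM, and of 8 neutrophil markers 212, 141 and 160 CPM.

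**Figure D4:**
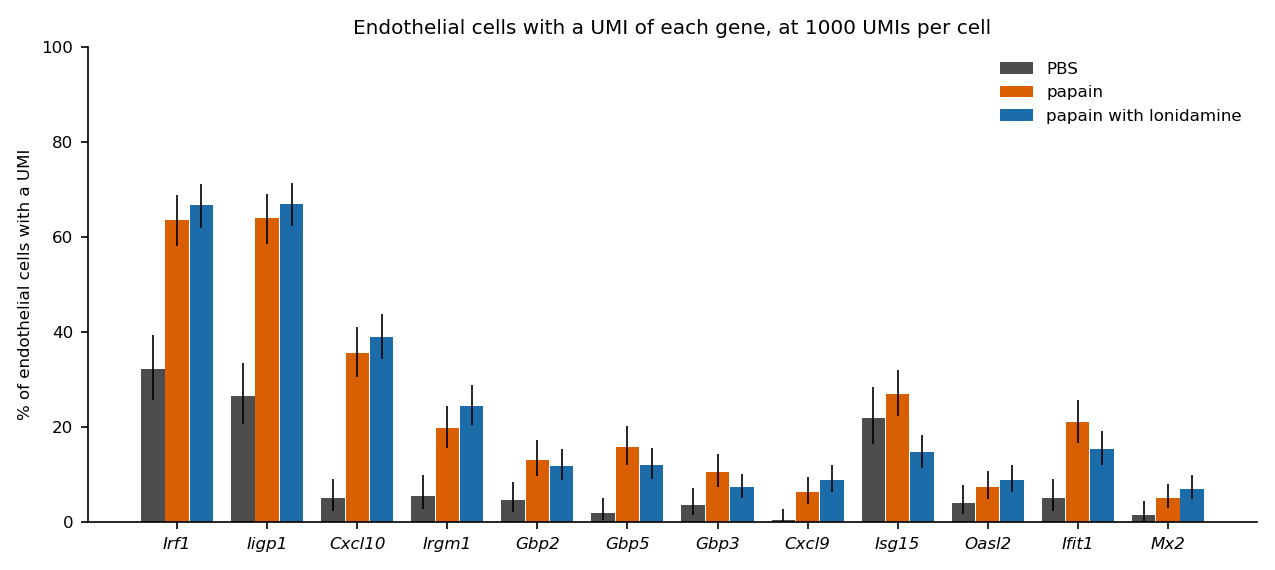
Share of endothelial cells (195, 333 and 421 cells with at least 1000 UMIs) with a UMI of each of 12 genes after thinning to 1000 UMIs per cell; bars start at 0, lines are exact binomial 95% intervals that cover counting error only, and the genes were chosen with their values known. Irf1, Iigp1 and Cxcl10 are far higher in both papain-treated libraries than in PBS, and Isg15 is lowest with lonidamine.

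Pericytes or smooth muscle (163, 285 and 234 cells) came next, with 8 of 11 and 10 of 20 measured genes higher and 1 lower, where 7.78% and 2.81% of all genes were. With at least 10 UMIs required in the PBS library, 12 in place of 18 remained higher. Cxcl9 had 3, 60 and 4 UMIs in the 3 libraries (3.37 [1.96, 5.90] with papain, -3.24 with lonidamine), of which 26 of the 60 came from 1 cell. Rtp4, a chaperone of cell-surface receptors, had 4, 48 and 15 UMIs (2.69), Mx2 11, 102 and 23 (2.41), and Tap1 11, 74 and 44 (1.95). In contrast to endothelial cells, Cxcl9, Mx2 (-1.62) and Cxcl10 (-1.77) here were at least 2-fold lower with lonidamine than with papain, among 7 of 30 measured members that were (1.32% of all genes). None was higher (1.31% of all genes). Iigp1 (220, 1137 and 854 UMIs; 233, 719 and 768 CPM) and Irf1 (482, 904 and 935 CPM) were not. Rsad2 had 17, 53 and 2 UMIs (-3.91 with lonidamine), but 43 of the 53 came from 1 cell and the ratio was -2.30 without the highest cells. The low value of Ifit3b with papain (-1.91) rested on 22 of 23 PBS UMIs in 1 cell and was 1.91 without it. The summed level of 8 fibroblast markers in this gate rose with treatment, at 629, 2134 and 2779 CPM, and its part in these values was not tested.

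Fibroblasts (111, 384 and 488 cells) had 6 of 12 Gbp/Irf1/Cxcl9-type and 3 of 20 Ifit/Oas/Mx-type genes higher with papain and 1 member lower (7.53% and 6.51% of all genes). Cxcl9 had 0, 67 and 19 UMIs, which is at least 7.79-fold higher with papain over a floor of 3 counts in the PBS library, and a ratio of -1.92 with lonidamine. Gbp3 had 4, 93 and 68 UMIs (2.86), Iigp1 121, 1123 and 558 (1.69) and Cxcl10 63, 522 and 217 (1.52). For Iigp1 and Cxcl10 the lonidamine library lay between the other two in CPM (146, 472 and 215; 75.9, 220 and 83.7). Of the 63 Cxcl10 UMIs in the PBS library 46 came from 1 cell, and the papain ratio was 3.22 without the highest cells. With lonidamine 7 of 35 measured members were at least 2-fold lower and none higher (1.34% and 2.20% of all genes). The low Rsad2 (26, 18 and 0 UMIs, -2.04) was 0.18 without them.

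Macrophages (304, 303 and 317 cells) had another order of genes. Oasl1, an OAS-like protein, had 10, 69 and 107 UMIs (ratio 3.32 [2.42, 4.51]), the highest of its group in any type, and did not come down with lonidamine (0.68). Ifih1 had 52, 143 and 155 UMIs (2.05) and Gbp2 27, 88 and 50 (2.28). Cxcl9 had 12, 80 and 7 UMIs, high with papain alone (3.29, then -3.37 [-4.82, -2.35] with lonidamine), with 29 of the 80 from 1 cell. Ifi35 (119, 33 and 31 UMIs, -1.24) and Ifit2 (67, 17 and 30 UMIs, -1.35) were lower with papain. In all, 9 of 36 measured members were higher and 2 lower, against 6.74% and 7.13% of all genes.

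Neutrophils (194, 580 and 703 cells) carried few UMIs, with a median of 1928, 1544 and 1444 per cell. Gbp5 had 2, 77 and 33 UMIs (3.75 [2.16, 7.13]), Gbp3 1, 29 and 4 (3.09 [1.06, 9.0]), Ifit1 2, 28 and 11 (2.30 [0.61, 5.72]) and Oas2 4, 29 and 30 (1.51). All 4 were low in the PBS library, where the counts are too few to fix the size. Of 27 measured members 10 were higher and none lower with papain (11.2% and 2.78% of all genes) but 3 with at least 10 UMIs in the PBS library, and with a minimum of 90 UMIs the Gbp/Irf1/Cxcl9-type median was -0.11 over 5 genes in place of 1.15. With lonidamine all 10 measured Gbp/Irf1/Cxcl9-type genes were below 0 and 4 were at least 2-fold lower, where 6.76% of all genes were and 4.31% were higher, with Gbp3 lowest (-3.03). Isg15 had 62, 125 and 44 UMIs (-1.81 with lonidamine).

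In T cells (504, 409 and 388 cells) Gbp3 had 10, 68 and 27 UMIs (2.85, then -1.21) and Iigp1 9, 23 and 14 (1.45). Ifi27l2a stood at 349, 625 and 477 CPM (0.84). Cxcl10 was lower with papain, with 176, 44 and 114 UMIs (-1.85 [-2.37, -1.37]), and 1.47 higher on the log2 scale with lonidamine; 53 of the 176 and 35 of the 114 came from 1 cell each. Ifi35 had 102, 43 and 29 UMIs (-1.09). With lonidamine 1 of 23 measured members was higher and 2 were lower (1.88% and 0.933% of all genes). T cells had 2 of 26 measured members higher and 3 lower, while 6.11% and 3.44% of all genes were.

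Epithelial cells differed by kind. Basal epithelial cells (797, 1490 and 1611 cells) had the flattest Gbp/Irf1/Cxcl9-type median (0.05), with 3 of 38 measured members higher and 3 lower (7.11% and 7.81% of all genes). Gbp2 was higher (101, 377 and 253 UMIs, 1.17) while Gbp5 (145, 85 and 68 UMIs, -1.50 [-1.90, -1.10]) and Rtp4 (153, 112 and 58 UMIs, -1.18) were lower. Ifit2, at 7, 27 and 23 UMIs (1.15), was -0.39 when cells were classed by graph clusters. With lonidamine the low end was Ifit3 (56 to 8 UMIs, -2.67 [-4.02, -1.67]) and Ifit3b (26 to 5 UMIs, -2.20), a closely related pair whose reads may be split between them, while Irf1 (0.48) and Cxcl10 (0.45) were at the high end.

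UMIs counted as Ifi202b came chiefly from basal epithelial cells. The gene encodes a p200 protein that binds DNA without a pyrin domain. Reads of it may be hard to tell from those of its paralogs, and which of them gave these UMIs was not settled. Over all cells Ifi202b had 403, 8869 and 6602 UMIs (5.04, 107 and 77.7 CPM). Of these, 73.7%, 78.9% and 77.5% lay in basal epithelial cells. Over all cells the papain ratio was 3.73 in female and 5.62 in male cells, and the lonidamine ratio -0.22 in female cells and -1.85 in male cells (106 and then 29.5 CPM). In basal epithelial cells it had 297, 6999 and 5119 UMIs or 36.6, 520 and 398 CPM (3.83 [3.66, 4.00] with papain, -0.39 with lonidamine), and 15.8%, 60.1% and 55.3% of cells had at least 1 UMI. Other compared types reached at most 2.75%, 2.68% and 3.39% of the basal level in the respective library, and thinned mature olfactory neurons gave 0%, 0.593% and 0.151% of cells; the first is 0 of 2674 cells, which allows a share of up to 0.112%. The thinned basal shares were 3.57%, 29.9% and 24.6%. Of 10 other p200 genes measured, none was at least 2-fold higher over all cells with papain, 1 was lower (Ifi209, -1.02), and Ifi205 was lower with lonidamine (-1.01).

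Sustentacular cells (311, 665 and 894 cells), which enclose and support olfactory neurons, were the sole type where the median of the Ifit/Oas/Mx-type genes lay below that of all genes with papain: 5 of 25 were at least 2-fold lower and 1 higher, against 4.60% and 9.34% of all genes. Ifit3 had 165, 78 and 37 UMIs (-2.02 [-2.44, -1.63]) and Rsad2 68, 33 and 16 (-1.98). In the PBS library 93 of the Ifit3 UMIs and 38 of the Rsad2 UMIs came from 1 cell, and without the highest cells the ratios were -1.08 and -1.0. Cxcl10 had 26, 242 and 180 UMIs (2.25), Psmb9 28, 167 and 122 (1.61) and Gbp3 15, 76 and 11 (1.35). With lonidamine 15 of 38 measured members were at least 2-fold lower, the most of any type by number, where 1.23% of all genes were, and none was higher, as 1.77% were; Gbp3 (-3.08 [-4.20, -2.22]) and Ifit3b (-1.99) were lowest. Ifi27l2a was the exception, with 2424, 1809 and 3880 UMIs (562, 217 and 366 CPM, 0.75 with lonidamine). Ifi202b in these cells had 0, 116 and 69 UMIs, at least 20.0-fold higher with papain over the floor, at 2.68% of the basal level, and the part of free RNA in this was not tested.

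In ionocytes or microvillous cells (538, 358 and 297 cells) Iigp1 had 14, 102 and 21 UMIs (3.68, then -1.81), Zbp1 10, 35 and 13 (2.62), Gbp3 20, 41 and 14 (1.88) and Oasl2 35, 69 and 18 (1.83). In CPM all 4 were highest with papain, and above the PBS level with lonidamine. Rsad2 had 63, 14 and 12 UMIs (-1.27). Of 29 measured members 9 were higher and 1 lower with papain (5.34% and 3.79% of all genes), and 9 of 25 lower with lonidamine (0.907%). Here 28 of the 102 papain and 17 of the 21 lonidamine UMIs of Iigp1 came from 1 cell each.

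Olfactory neurons had low levels of most members, with Ifit1, Cmpk2 and Ifit2 as exceptions. Ifit1, which binds viral RNA, had 2429, 865 and 787 UMIs in mature olfactory neurons (2744, 1205 and 1353 cells). Of these cells 44.5% [42.6, 46.4], 41.7% and 36.4% had at least 1 Ifit1 UMI. The thinned shares were 10.3%, 7.54% and 8.93%. Immature olfactory neurons, the stage before, gave 5.73%, 4.62% and 1.73% unthinned, and thinned T cells gave 0.797%, 1.23% and 0.522%. Cmpk2 had 639, 371 and 494 UMIs in mature neurons, or 30.5, 42.1 and 55.5 CPM, and 19.6%, 24.9% and 29.3% of cells had a UMI. Both types of neuron together held 58.0%, 24.3% and 27.7% of all Ifit1 UMIs of a library and 64.7%, 49.0% and 50.8% of all Cmpk2 UMIs. They held 46.5%, 29.9% and 33.6% of all Ifit2 UMIs, and 7.73%, 12.4% and 10.3% of mature neurons had an Ifit2 UMI, or 1.23%, 1.69% and 1.66% after thinning. Ifit3 was found in 0.583%, 0.249% and 0.370% of mature neurons, and Isg15 in 0.948%, 2.16% and 0.370%. Far more mature neurons thus had a UMI of Ifit1 than of Ifit3 or of Isg15 in every library. Detection of these genes in the same cell was not counted. Mature neurons made up 29.3% of the cells of the PBS library, 11.45% of the papain library and 11.38% of the lonidamine library. Sums with the PBS shares of all cell types are given above for Oas3 and for the Gbp/Irf1/Cxcl9-type median with papain. The part of mature neurons alone in the sums over all cells was not tested.

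With papain 7 of 32 measured members were higher and 1 lower in mature neurons (7.91% and 4.42% of all genes). Iigp1 (10, 34 and 45 UMIs, 2.97), Gbp3 (7, 23 and 3, 2.90) and Igtp (24, 31 and 21, 1.61) were among them, as was Ifi202b (2, 33 and 10 UMIs, 5.0 [3.33, 8.40]). All 4 were at most 5.05 CPM in any library, Ifi202b at 0.261%, 0.721% and 0.282% of its basal cell level. These neurons also served as the background for free RNA, whose part in these ratios was not tested, and 32 of the 45 lonidamine UMIs of Iigp1 came from 1 cell. Ifi27l2a was lower (20.9, 8.52 and 9.43 CPM, -1.29), with 75 of its 438 PBS UMIs in 1 cell. With lonidamine 10 of 27 measured members were lower and 1 higher (2.78% and 2.14% of all genes). Among them Oasl2 had 13 UMIs after 78 (-2.56). Cxcl10 had 29 and then 103 UMIs (1.79), of which 46 lay in 1 cell. In immature olfactory neurons (837, 758 and 579 cells) Iigp1 had 1, 51 and 9 UMIs (5.52 [3.55, 11.43]) with 32 of the 51 in 1 cell, Oasl2 11, 28 and 8 (1.73), Cxcl10 9, 24 and 16 (1.79) and Irf1 46, 96 and 88 (1.47). In these cells 10 of 22 were higher (5.08% of all genes). With lonidamine Bst2, which tethers budding virus to the cell, had 15 UMIs after 85 (-1.92), and 7 of 20 measured members were at least 2-fold lower and none higher (1.62% and 1.76% of all genes).

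Isg15 was at least 2-fold lower with lonidamine than with papain in 11 of 11 cell types, with the upper end of the interval below 0 in each. For comparison, between 0.805% (basal epithelial cells) and 6.76% (neutrophils) of all genes were that much lower in a type. The ratio was -1.06 [-1.35, -0.79] in macrophages, where Isg15 had 223, 332 and 153 UMIs, and -2.86 [-4.68, -1.64] in mature olfactory neurons, with 58, 39 and 5 UMIs. Between these ends lay endothelial cells (-1.17), pericytes or smooth muscle (-1.39), ionocytes or microvillous cells (-1.43), fibroblasts (-1.45), sustentacular cells (-1.57), neutrophils (-1.81), basal epithelial cells (454, 480 and 128 UMIs, -1.84), T cells (116, 116 and 25 UMIs, -2.09) and immature olfactory neurons (22, 36 and 3 UMIs, -2.84). Without the highest cell of each library the ratios ran from -3.11 to -1.07. Mature olfactory neurons also served as the background for free RNA. The part of free RNA in the Isg15 ratios of the types was not tested. Among female cells alone, 6 of the 8 types with enough cells were at least 2-fold lower and 8 of 8 below 0. Among male cells Isg15 could be measured in 3 types, of which 2 were 2-fold lower and the other had a ratio of -0.18. With papain, Isg15 was higher in 3 types, lower in none, and below 0 in 4, from -0.65 in basal epithelial cells to 1.28 in endothelial cells. In 9 of the 11 types the lonidamine level was below the PBS level as well, with endothelial cells and macrophages the exceptions. No other member was 2-fold lower with lonidamine in all types where it was measured in at least 5 types; Bst2 came nearest in sign, below 0 in 11 of 11 and 2-fold lower in 6, and Irf7 was below 0 in 10 and 2-fold lower in 5.

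**Figure D5:**
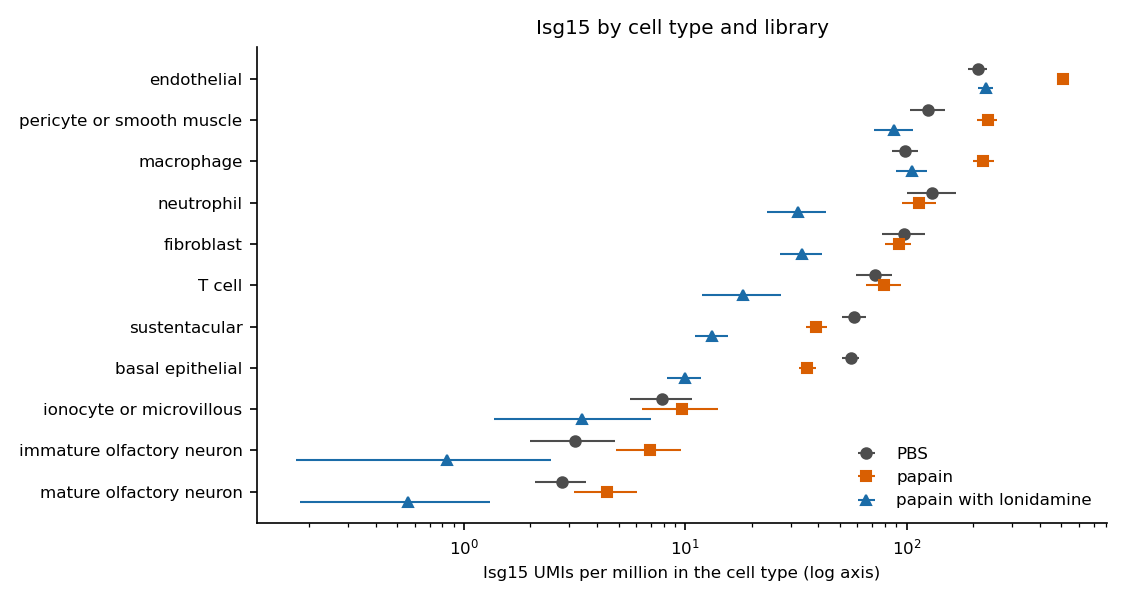
Isg15 level in each of 11 gated cell types for the 3 libraries, in CPM within the cell type on a log axis, with exact Poisson 95% intervals that cover counting error only. The lonidamine point lies left of the papain point in every type, from 153 against 332 UMIs in macrophages to 5 against 39 in mature olfactory neurons.

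The upstream genes gave few counts for the interferons themselves. Ifnb1 had 2, 19 and 18 UMIs over all cells (ratio 2.91 [1.14, 6.34] with papain), of which 16 of the 19 in the papain library lay in macrophages. The 7 Ifna genes in the annotation had 0 UMIs in all 3 libraries. Ifng had 126, 72 and 113 UMIs (-0.86 [-1.30, -0.43] with papain, 0.61 [0.18, 1.06] with lonidamine), with most UMIs in T cells in the PBS and papain libraries (44 and 42) and in natural killer cells in the lonidamine library (56). The Ifng sum was thus lowest with papain, where the Gbp/Irf1/Cxcl9-type median against PBS was 1.34. These sums are small and taken over all cells. The part of interferon gamma, and of the shares of the cells that make it, was not tested. Of the 6 receptor chains, Ifnlr1 was highest with papain (0.33) and Il10rb lowest (-0.40). The kinase gene Jak2 was higher (2789, 7318 and 6793 UMIs, 1.34), and Jak1 and Tyk2 had 0.14 and 0.09.

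Related genes outside the 44 were counted by list. Of 10 other interferon-induced GTPases, 6 were at least 2-fold higher with papain over all cells, where 9.73% of all genes were higher and 5.39% lower: Tgtp1 (2.01) and Tgtp2 (1.99), a near-identical pair whose reads may be split between them, Irgm2 (1.62), Gbp6 (1.56), Gbp4 (1.25) and Gbp7 (1.10). Of 16 other antiviral effectors measured, 2 were, a share near that of all genes: Ifitm1 (19022, 46561 and 30975 UMIs, 1.24) and Ddx60 (1.23). None of 12 MHC class I presentation genes and none of 6 inhibitors measured passed 2-fold in either direction. Of 12 nucleic acid sensors and adaptors, Irf5 (-1.21) and Tlr7 (-1.03) were lower. With lonidamine against papain, Ifit1bl1 was higher (34 and then 85 UMIs, 1.27) and Ifi205 lower, and no other gene of these lists passed 2-fold with at least 30 UMIs.

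Levels pointed to monocytes and endothelial cells. Among the 22 types with at least 10 cells in a library, monocytes (239, 49 and 87 cells, too few to be compared) had the highest CPM for 12 of the 31 Ifit/Oas/Mx-type genes in the PBS library, such as Ifitm3 (5723 CPM), Ifi27l2a (2426 CPM), Trim30a (197 CPM) and Irf7 (183 CPM). In the papain library this number was 8 and in the lonidamine library 5, while endothelial cells led for 2, 7 and 12. The share of thinned monocytes with at least 3 Ifit/Oas/Mx-type genes was 68.9% [62.6, 74.7], 62.5% [47.4, 76.0] and 40% [29.5, 51.2]. Endothelial cells had the highest CPM for 5, 5 and 7 of the 12 Gbp/Irf1/Cxcl9-type genes. Plasmacytoid dendritic cells, known as a source of type I interferon, led for Bst2, at 4001 CPM in 10 cells of the PBS library and 2696 CPM in 29 of the papain library. Olfactory ensheathing cells in the papain library (119 cells) led for Cxcl10 (1753 CPM), Isg15 (595 CPM), Irgm1 (345 CPM), Igtp (286 CPM) and Gbp2 (184 CPM).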

How the data were processed

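Nasal mucosa was digested with collagenases and Dispase and single-cell 3′ libraries were made on the 10x Chromium platform, per the labels' protocols. The authors deposited 1 matrix of raw UMI counts per library, already limited to called cells. The file headers name Cell Ranger 7.1.0 and the submitters' processing notes name Cell Ranger 2.1.1 and the build GRCm39; which version made the counts was not settled. Promoter windows came from RefSeq tables of build GRCm38.p6 and were joined by symbol, and none of their coordinates refers to GRCm39.

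From the deposited counts, 9515, 10712 and 12149 of 9740, 11071 and 12598 barcodes passed minimums of 500 UMIs and 200 genes and a maximum of 20% mitochondrial UMIs, in the order PBS, papain, lonidamine. Scrublet in scanpy 1.11.5 removed 137, 188 and 262 doublets. A cell was given a type with at least 3 of that type's markers and a lead of at least 0.25 in the share of markers over the next type. UMIs were summed per library and type, and log2 ratios carry 95% intervals from the conditional binomial distribution (scipy 1.17.1, numpy 2.4.6, pandas 2.3.3). Shares of cells have exact Clopper-Pearson intervals, also after thinning to 1000 UMIs per cell, and a floor of 3 counts was used where a count was 0. Cells of 1 library are not replicates, and with 1 library per group no p-value was computed. On counts simulated with Poisson error alone, the model that the intervals assume, they held the true ratio for between 95.4% and 95.9% of genes. Clumping of UMIs in single cells was not simulated, so this checks the calculation and not the width of the intervals in the data.

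The 44 members and the lists of markers and of related genes were chosen with earlier results of these data known. Named are members at least 2-fold different over all cells and those with most UMIs, per type the 4 highest and 2 lowest ratios among measured members (the text leaves some out and names others that were picked after their values were seen), and, of related genes, interferons, receptor chains and those at least 2-fold different. Alternatives changed the cell filter, doublets, scaling, UMI total, weight of cells, sex, minimum of UMIs, added count, mix of types, gate and the use of graph clusters (leidenalg 0.10.2). Leaving out the cell with most UMIs of a gene in each library was added after the data were seen.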

Additional observations from a re-analysis of the deposited data

Results flagged for a closer look

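Several genes were at least 2-fold higher with papain in 1 cell type and at least 2-fold lower in another. These differences between types were not tested, since each group is 1 library. Cxcl10 had a log2 ratio of 3.51 in endothelial cells and -1.85 in T cells. Gbp5 had 3.75 in neutrophils, on 2 PBS UMIs, and -1.50 in basal epithelial cells. Rtp4 had 2.69 in pericytes or smooth muscle, on 4 PBS UMIs, and -1.18 in basal epithelial cells. Ifit1 had 2.30 in neutrophils, on 2 PBS UMIs, and -1.57 in sustentacular cells. Ifit2 had 1.29 in endothelial cells and -1.35 in macrophages. Oasl2 had 1.83 in ionocytes or microvillous cells and -1.06 in T cells. Ifi27l2a had 1.81 in ionocytes or microvillous cells and -1.37 in sustentacular cells. With lonidamine against papain, Cxcl10 had 1.47 in T cells and -1.77 in pericytes or smooth muscle.

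In the cells that no gate claimed, which entered only the sums over all cells, 6 members were at least 2-fold higher with papain and 2 lower, where 7.38% and 4.10% of all genes were. The Gbp/Irf1/Cxcl9-type genes gave 5 of them, with a median ratio of 0.95, and Ifi202b was the other. The Ifit/Oas/Mx type had none higher and 2 lower, Oas3 (-2.02) and Rsad2 (-1.58), with a median of -0.20.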

How the results depend on the processing

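With papain, the Gbp/Irf1/Cxcl9-type median over all cells was 1.61 in female cells, 1.07 in male cells and 0.87 with PBS shares of cell types, in place of 1.34. No member was 2-fold lower, in place of 1 (Oas3), with per-cell mean CPM (0) or PBS shares (0). With lonidamine, the Ifit/Oas/Mx-type median of -0.29 was -0.13 in female and -0.64 in male cells, and the Gbp/Irf1/Cxcl9-type median of -0.31 was -0.43 in male cells. Members 2-fold lower, 2 in the reported setting, were 1 with per-cell mean CPM, 1 in female and 14 in male cells. Of the 6 types with enough male cells, 6 had the Ifit/Oas/Mx-type and 4 the Gbp/Irf1/Cxcl9-type median below that of all genes. The direction turned for Ifit2 in basal epithelial cells with graph clusters (-0.39), for the Gbp/Irf1/Cxcl9-type median in neutrophils with a minimum of 90 UMIs (-0.11), and without the highest cell for Rsad2 in fibroblasts (0.18) and Ifit3b in pericytes or smooth muscle (1.91). Of 2973 values of single genes and types under an alternative, 2630 stayed within the counting interval, 339 moved beyond it and 4 turned. A changed minimum of UMIs leaves the ratio of a single gene as it is, so those values could not move. With the group results included, 98 values moved and 84 did not in male cells, and 89 and 141 in female cells. With PBS shares of cell types 43 moved and 53 did not. Apart from fewer samples or genes in a subset, the cause was not tested. No paired analysis was possible because each group is 1 library with no replicate number, and leaving out a replicate was not possible for the same reason. Depth limits ratios in neutrophils and ratios on fewer than 10 PBS UMIs.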

Other observations

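Some members had their highest level in cell types too small to be compared. Usp18, a protease that removes Isg15 from proteins, and Ifi35 were highest in ciliated cells in all 3 libraries, at 103, 56.2 and 52.0 CPM for Usp18 and 247, 117 and 102 CPM for Ifi35, from 80, 35 and 35 cells. The immunoproteasome subunit Psmb9 was highest in conventional dendritic cells in all 3 libraries (287, 249 and 187 CPM), from 19, 17 and 31 cells. Olfactory ensheathing cells, the glia of the olfactory nerve, led for Ifit3 with papain and with lonidamine (166 and 69.4 CPM) and for Ifit3b in all 3 libraries (33.8, 53.8 and 45.5 CPM, the first on 2 UMIs).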
